A study of Mus musculus with 56 samples.

Results

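The proteasome is the protease that breaks down proteins marked with ubiquitin. Its genes were followed over the day in the anterior hypothalamus of 56 female C57BL/6J mice, 9 weeks old, fed only in the daytime (DRF) or only at night (NRF). All mice had 7 days of acclimation with free access to chow under 12 h of light and 12 h of dark, followed by 7 days on their regimen, and 4 mice per regimen were sampled every 4 h from ZT0, which is lights on, to ZT24. The genes were all those whose symbol starts with Psma, Psmb, Psmc, Psmd, Psme, Psmf or Psmg and a digit: 51 symbols matched, none was a pseudogene, and 50 of the 17564 genes measured remained after a filter that asked for a deposited value of at least 1 in 80% of the samples. The gene left out was Psmb11, the beta subunit of the thymus proteasome, which reached the value in 20 of 56 samples. The other 50 reached it in 56 of 56.

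The 26S proteasome is a barrel, the 20S core, capped by the 19S regulatory particle. The core has outer rings of alpha subunits (Psma genes), which gate the entry, and inner rings of beta subunits (Psmb genes), 3 of which cut: Psmb6 (beta1) after acidic, Psmb7 (beta2) after basic and Psmb5 (beta5) after hydrophobic residues. In the immunoproteasome, which serves antigen presentation, Psmb9, Psmb10 and Psmb8 take their places. The cap joins a ring of ATPases (Psmc genes), which unfold substrates, to non-ATPase subunits (Psmd genes), which bind and remove ubiquitin. Psme genes encode activators that can replace the cap, Psmf1 encodes the inhibitor PI31, and Psmg genes with Psmd5, Psmd9 and Psmd10 encode chaperones of assembly. The transcription factor Nfe2l1 raises proteasome genes together when the protease falls short. Neurons depend on the proteasome for the turnover of synaptic proteins. The symbol rule also brought in Psmc3ip and Psme3ip1, which encode interacting proteins and not subunits, and Psme2b, a near copy of Psme2 with which it shares reads, so that the split between them is uncertain.

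Promoter windows of 250 bases before to 50 bases after the transcription start (RefSeq, GRCm38.p6) were at hand for 42 of the 50 genes. They were searched on both strands for 4 motifs: TGACNNNGC, the core of the antioxidant response element that Nfe2l1 binds, CACGTG, the E-box of the clock factors, TGACGTCA, the cAMP response element, and CCAAT. The 42 genes had 46 windows, and a gene counted once if any of its windows held the motif. TGACNNNGC was found for 6 of 42 genes (14.3%, against 16.5% of 12810 genes with a window): Psmb5, Psmb6, Psmc6, Psmd9, Psmd12 and Psme4. CACGTG was found for 5 of 42 genes (11.9%, against 10.9%): Psma4, Psmb10, Psmd9, Psme3 and Psme3ip1. TGACGTCA was found for 0 of 42 genes (3.2% of all genes with a window) and CCAAT for 15 of 42 (35.7%, against 42.6%). These shares were not tested. A match of letters is not a bound site, and some motifs share letters, TGAC among them. The windows of 4 genes with rhythms described below are shown along the gene's strand. Of all genes called rhythmic in NRF, only Psmb6, Psmc6 and Psmb10 were found with TGACNNNGC or CACGTG, and all of these are shown. Other rhythmic genes, Psmb2 and Psmb3 among them, are not, so the display does not represent the rhythmic genes. Capitals mark TGACNNNGC or CACGTG. The windows lie at chr2:151741261-151741560, minus strand (Psmf1), chr11:70525107-70525406, plus strand (Psmb6), chr14:45329574-45329873, plus strand (Psmc6) and chr8:105938343-105938642, minus strand (Psmb10).
Psmf1: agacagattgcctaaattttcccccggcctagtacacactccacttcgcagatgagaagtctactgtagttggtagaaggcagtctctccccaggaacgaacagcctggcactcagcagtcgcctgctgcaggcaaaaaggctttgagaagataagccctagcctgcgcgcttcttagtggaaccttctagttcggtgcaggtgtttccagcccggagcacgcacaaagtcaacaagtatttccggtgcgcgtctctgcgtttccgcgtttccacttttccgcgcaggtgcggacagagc
Psmb6: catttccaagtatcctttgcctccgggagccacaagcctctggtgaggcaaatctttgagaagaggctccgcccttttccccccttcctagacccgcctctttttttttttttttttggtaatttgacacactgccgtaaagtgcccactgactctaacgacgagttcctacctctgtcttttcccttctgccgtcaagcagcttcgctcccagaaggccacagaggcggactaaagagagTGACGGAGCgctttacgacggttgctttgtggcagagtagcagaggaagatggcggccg
Psmc6: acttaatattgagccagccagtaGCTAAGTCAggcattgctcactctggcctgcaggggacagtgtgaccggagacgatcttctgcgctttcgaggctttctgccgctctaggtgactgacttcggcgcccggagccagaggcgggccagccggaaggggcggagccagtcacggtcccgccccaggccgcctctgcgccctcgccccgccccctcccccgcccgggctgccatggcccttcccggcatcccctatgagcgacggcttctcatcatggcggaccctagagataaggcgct
Psmb10: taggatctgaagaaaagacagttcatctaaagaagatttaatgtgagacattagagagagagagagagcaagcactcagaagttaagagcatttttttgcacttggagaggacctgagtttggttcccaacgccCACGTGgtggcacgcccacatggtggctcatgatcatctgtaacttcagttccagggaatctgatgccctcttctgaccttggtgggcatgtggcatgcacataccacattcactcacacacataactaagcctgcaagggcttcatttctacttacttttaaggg
The Psmf1 window held neither motif. It lies inside the annotated span of the gene (151716062 to 151744199), so the sequence before the gene's outermost start was not searched. The Psmb6 window held TGACNNNGC at position -9 from the start and the Psmc6 window held it at position -227, read on the opposite strand. The Psmb10 window held CACGTG at position -116.

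The libraries held 29591266 to 34493344 reads after normalization. The tissue label was checked against markers: Oxt ranged from 1202 to 2825 TPM (transcript level corrected for gene length) and Avp from 446 to 2153 TPM, and all 8 neuronal markers listed passed the filter. In 2 DRF libraries of ZT16 (replicates 3 and 4) the reads leaned toward genes rich in G and C, with slopes of 0.399 and 0.575 log2 units per 10% of GC content against -0.147 to 0.184 in the other libraries. Counts of calls and some single calls are given with and without these 2 libraries. The DRF amplitudes, fitted peaks, means and sums include them. In bulk tissue, fewer cells of a type and less RNA per cell cannot be told apart.

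The proteasome genes together made up 0.528% of all transcripts (5277 ± 157 TPM, SD, n = 56 mice). The non-ATPase subunits of the cap contributed 25.1% of this sum, the ATPases 23.5%, the constitutive beta subunits 21.1% and the alpha subunits 16.7%. The highest level was that of the ATPase Psmc5 with a mean of 415 TPM (380 to 493 over the mice), and Psmc1, another ATPase, followed with 327 TPM (298 to 350). Among the cutting subunits, Psmb5 had 250 TPM (225 to 306), Psmb6 157 TPM (133 to 186) and Psmb7 117 TPM (104 to 135). Ranks and class shares in TPM depend on the gene length used, which was 899, 1872 and 3421 bases for these subunits. In reads scaled to library size alone (CPM) their order was reversed, with means of 55.2, 72.1 and 98.0. On that scale Psmd1, with 212 CPM, also exceeded Psmc5, with 142 CPM. Their immunoproteasome counterparts were far lower: Psmb10 had 44.6 TPM (33.1 to 55.9), Psmb8 2.79 TPM (1.84 to 3.96) and Psmb9 0.753 TPM (0.30 to 1.35). The ranges of Psmb8 and Psmb9 did not overlap that of Psmb10. The inhibitor Psmf1 had 26.7 TPM (22.4 to 32.5) and the chaperone group summed to 213 TPM. The lowest gene was Psma8, the testis alpha subunit, at 0.482 TPM (0.0798 to 1.03), which rested on a median of 6 reads. Within groups of 4 mice the coefficient of variation had a median of 5.29% over the 50 genes, with a range of 2.92% to 47.9%.

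**Figure D1:**
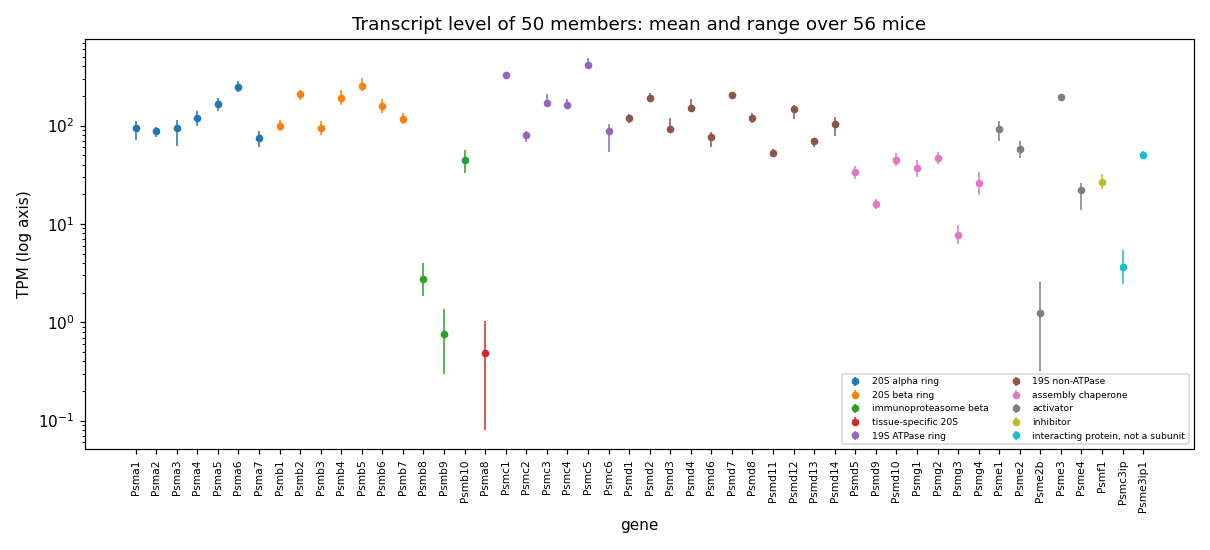
Level of each of the 50 genes in TPM on a log axis, with the mean over 56 mice as a point and the full range as a line, coloured by class. Subunits of the core and cap lie between 52.5 and 415 TPM, while Psmb8, Psmb9, Psma8, Psme2b and Psmc3ip lie under 4 TPM on average.

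The study used MetaCycle, and here a rhythm was called with a rebuilt combination of JTK_CYCLE and Lomb-Scargle over periods of 20 to 28 h, settings that were chosen here, at a BH-adjusted p-value under 0.05. In NRF 15 of 50 proteasome genes were rhythmic, a share of 30.0% against 27.8% of all 16245 genes tested, which is near the background. The calls were uneven over the complex: 5 of 7 constitutive beta subunits (Psmb2, Psmb3, Psmb4, Psmb6 and Psmb7), 1 of 3 immunoproteasome subunits (Psmb10), 1 of 7 alpha subunits (Psma7), 3 of 6 ATPases (Psmc2, Psmc3 and Psmc6), 4 of 11 non-ATPase subunits (Psmd2, Psmd4, Psmd7 and Psmd11), the inhibitor Psmf1, and 0 of 7 chaperones and 0 of 5 activators. Amplitudes, from the mean to the peak of a fitted 24-h cosine on log2(CPM + 1), were small: their median was 0.056 over the 50 genes against 0.073 over all genes. They were 0.188 for Psmf1, 0.179 for Psmb10, 0.158 for Psmb3, 0.131 for Psmb2, 0.122 for Psmb6, 0.095 for Psmb4 and 0.093 for Psmb7. Of the 15 rhythmic genes, 11 (73.3%) peaked between ZT6 and ZT12, and 4 between ZT12 and ZT18, while 30.1% and 12.3% of all genes rhythmic in NRF peaked in these windows and 52.4% of them peaked between ZT18 and ZT24, where no rhythmic proteasome gene did. These shares are descriptions and were not tested.

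In DRF 0 of 50 genes were rhythmic, against 0.813% of all genes. JTK_CYCLE alone, Lomb-Scargle alone and the limma test of a 24-h cosine also called 0 after adjustment. At an unadjusted p under 0.05 the combined method found 1 of 50 (4.36% of all genes) and JTK_CYCLE 2 (5.27%). Lomb-Scargle found 0 (1.34%) and the limma test 12 (22.7%). The smallest values were those of Psmf1 (BH-adjusted p = 0.671), Psmb10 and Psme3ip1 (BH-adjusted p = 1 for both). Psmf1 was called without ZT4 (BH-adjusted p = 0.0488). The amplitude in NRF exceeded that in DRF in 34 of 50 genes, which compares with 61.8% of all genes, and in 14 of the 15 genes chosen for their NRF rhythm, where the choice favours this direction.

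Psmf1 had the largest amplitude of the family in NRF. Its CPM (reads scaled to library size) in the 4 NRF mice of each time was 40.1, 40.1, 40.8 and 41.3 at ZT0, then 48.6, 49.0, 48.2 and 46.7 at ZT8. They were 38.0, 36.2, 35 and 39.0 at ZT20. All 4 mice at ZT8 lay above all mice at ZT0 and ZT20, and the fitted peak fell at ZT7.87 (BH-adjusted p = 1.25e-06). The choice of ZT8 and ZT20, its highest and lowest NRF groups, favours this separation. In DRF the values were 50.9, 46.4, 44.5 and 51.7 at ZT0, and 41.3, 42.1, 42.5 and 41.9 at ZT8. They were 42.8, 37.0, 41.1 and 43.0 at ZT20 and 46.2, 44.6, 44.9 and 40.4 at ZT24. The order was thus turned: in DRF the mice at ZT0 were above those at ZT8, and the fitted DRF peak fell at ZT0.0451 with an amplitude of 0.077. The rhythms of Psmf1 differed between the regimens (limma F test of the cosine terms, BH-adjusted p = 6.63e-06), and they did so under all 19 alternative settings (BH-adjusted p of 2.33e-06 to 0.00203). Between regimens Psmf1 was higher in DRF at ZT0 by 0.25 ± 0.05 on the log2 scale (SE, BH-adjusted p = 0.00204), with all 4 DRF mice above all 4 NRF mice, a call lost without replicate 1 (0.0983). At ZT12 it was lower in DRF by -0.19 ± 0.05 (BH-adjusted p = 0.0421), a call lost with the replicate number as a block (0 of 50 genes called at ZT12) and without any one replicate number. Its mean over the day differed by 0.01 ± 0.02 (BH-adjusted p = 0.732). Part of the reads of Psmf1 were assigned by the estimation model, as its read numbers were not whole. At ZT0, 2 of 5 endothelial markers (Cldn5 and Ly6c1) were lower in DRF, and the summed level of the list was 175 to 185 TPM in DRF and 217 to 226 TPM in NRF. At ZT12, 2 of 6 oligodendrocyte markers (Mog and Mobp) were lower in DRF, with sums of 3353 to 4187 TPM in DRF and 4121 to 5465 TPM in NRF. Whether these cells had a part in the Psmf1 differences was not tested.

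**Figure D2:**
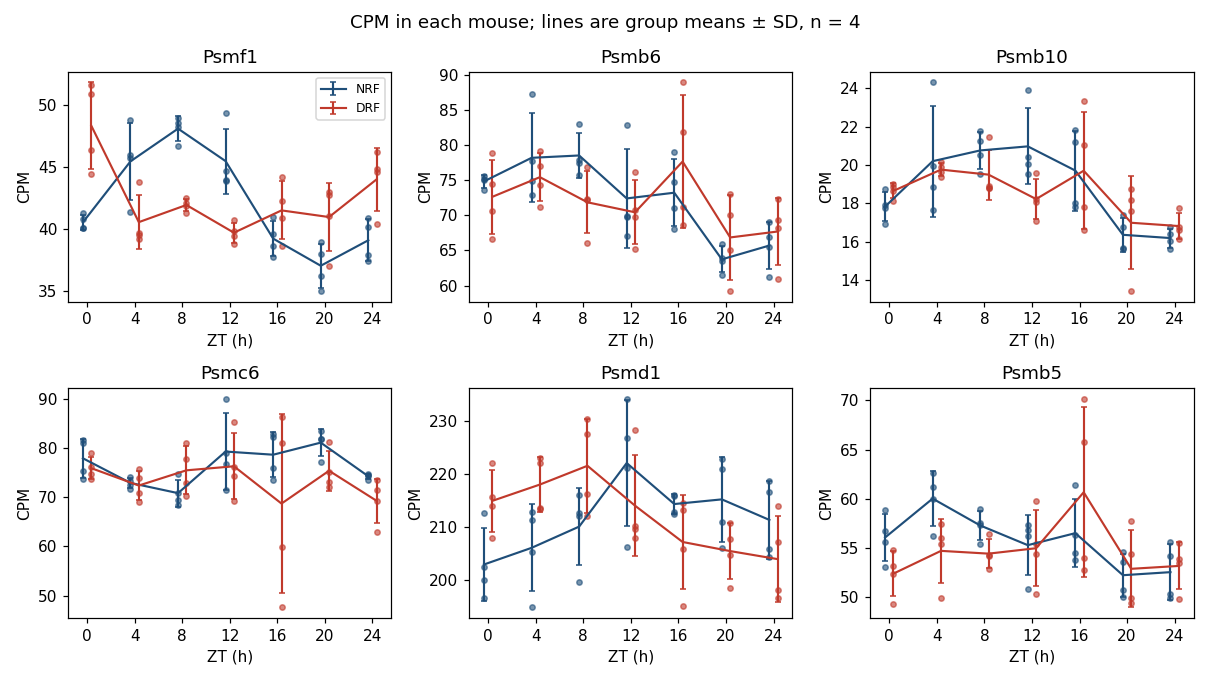
CPM of 6 genes in each mouse against ZT in hours, NRF in blue and DRF in red, with group means ± SD (4 mice). Psmf1 peaks at ZT8 in NRF and at ZT0 in DRF, and the wide DRF bars at ZT16 for Psmb5, Psmb6 and Psmc6 come from the spread between replicates 1 and 2 and replicates 3 and 4.

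Of the 7 constitutive beta subunits, 5 were rhythmic in NRF, and Psmb1 (BH-adjusted p = 0.146) and Psmb5 (0.571) were not. The fitted peaks of the 7, called or not, lay between ZT7.26 (Psmb1) and ZT9.45 (Psmb4). In NRF their levels at ZT24 were below those at ZT0, with a median log2 difference of -0.186 against -0.005 over all genes. In each of the 7 the NRF amplitude (0.066 to 0.158) exceeded the DRF amplitude (0.025 to 0.058). The NRF calls of 5 of the 7 favour this direction, which 61.8% of all genes shared. Psmb3, a structural subunit, had 60.1, 60.8, 56.0 and 62.7 CPM at ZT8 and 47.3, 50.3, 44.8 and 48.0 CPM at ZT20 in NRF (BH-adjusted p = 2.80e-06). In DRF it had 59.4, 57.4, 47.2 and 52.8 CPM at ZT8 and 50.8, 47.6, 44.8 and 52.2 CPM at ZT20. The NRF groups did not overlap, and the DRF groups did, a contrast that the choice of times near the NRF peak and trough favours. Markers of oligodendrocytes moved in the same regimen: 3 of 6 were rhythmic in NRF and 0 of 6 in DRF, with NRF peaks at ZT10.1 for Mog (amplitude 0.241), ZT9.83 for Mag (0.275) and ZT8.14 for Cnp (0.171). The summed level of this list was 3680 to 4393 TPM at ZT8, 4121 to 5465 TPM at ZT12 and 3580 to 4241 TPM at ZT20 in NRF. The microglial marker C1qa peaked at ZT7.07 (1 of 6 markers), the astrocyte marker Gja1 at ZT20.9 (1 of 6), and 4 of 5 endothelial markers were rhythmic in NRF with peaks between ZT15.1 and ZT1.30, while 0 of 8 neuronal, 0 of 3 ependymal and 0 of 3 blood markers were. The part of these cells in the rhythms was not tested.

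Psmb6, the caspase-like subunit, had 75.7, 83.0, 77.5 and 77.8 CPM at ZT8 and 63.5, 66.0, 61.5 and 64.0 CPM at ZT20 in NRF (fitted peak at ZT7.53, BH-adjusted p = 0.00127). In DRF its means were highest at ZT16 (77.6 ± 9.46 CPM, SD, n = 4), where replicates 3 and 4 had 88.9 and 81.9 CPM and the other replicates 68.6 and 71.2. Psmb7, the trypsin-like subunit, had 106, 106, 96.5 and 104 CPM at ZT8 and 92.7, 91.7, 86.5 and 91.5 CPM at ZT20 in NRF (BH-adjusted p = 0.00775). The ZT8 mice of Psmb6 and Psmb7 were all above the ZT20 mice in NRF, a separation that the choice of these times favours in genes called in NRF. The Psmb7 call was lost in 8 of 17 alternatives, among them each left-out replicate number (BH-adjusted p of 0.0876 to 0.103) and the run without ZT24. That of Psmb6 was lost in 5 of 17, among them those without replicate 3 (0.182) and without ZT8, ZT20 or ZT24. Psmb5, the chymotrypsin-like subunit targeted by proteasome inhibitor drugs, was not called in NRF (BH-adjusted p = 0.571), although its peak at ZT7.27 was close to that of the other subunits. It was called when the method was run on recovered log2(CPM + 1) (BH-adjusted p = 0.0337). Psmb2, a structural subunit, peaked at ZT8.93 (BH-adjusted p = 4.90e-06) and Psmb4, also structural, at ZT9.45 (0.00286). The Psmb4 call was lost without replicate 1, 3 or 4 (BH-adjusted p of 0.0528 to 0.110) and without ZT24 (0.982).

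Of the immunoproteasome subunits, Psmb10 was rhythmic in NRF. It had 20.5, 21.8, 21.2 and 19.5 CPM at ZT8 and 15.6, 16.8, 15.7 and 17.4 CPM at ZT20 (fitted peak at ZT9.67, BH-adjusted p = 0.000122). In DRF the values were 21.4, 18.8, 18.9 and 18.8 CPM at ZT8 and 17.6, 13.4, 18.8 and 18.2 CPM at ZT20, and the call was absent (BH-adjusted p = 1) but was made without the 2 DRF libraries of ZT16 (0.0482). The NRF groups were apart, which the choice of times near the NRF peak and trough favours, and the DRF groups nearly met. Psmb8 and Psmb9 were not called in either regimen (BH-adjusted p = 1), on medians of 59.5 and 21.5 reads per library against 576 for Psmb10. The interferon and antigen presentation genes that accompany these subunits showed 0 of 11 rhythmic in DRF. B2m, the light chain of class I molecules, was lower in DRF in mean level (-0.14 ± 0.03, BH-adjusted p = 0.00316), and 0 of the 11 was higher.

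**Figure D3:**
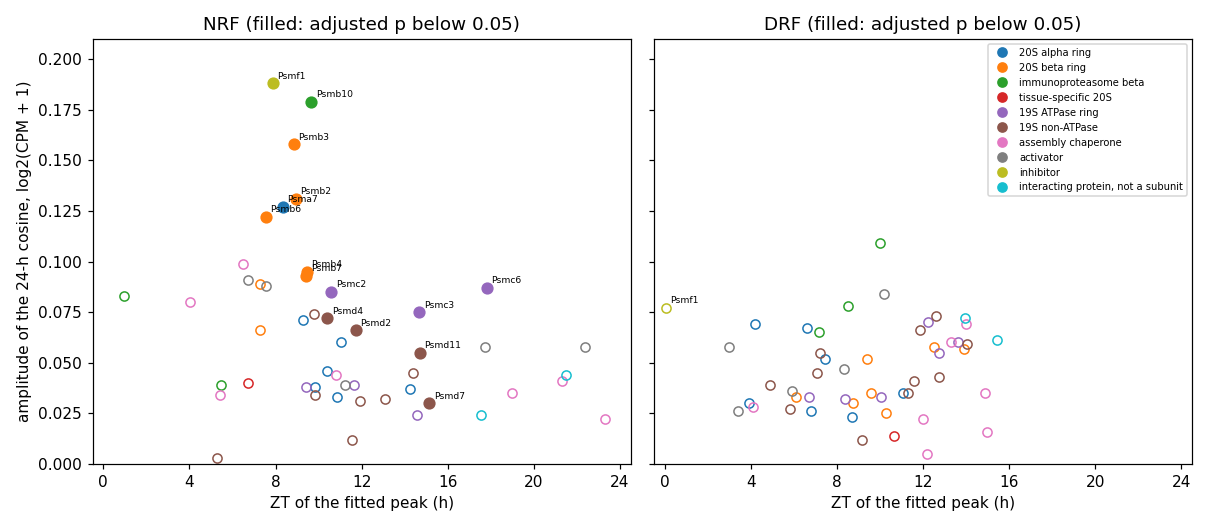
Fitted peak time in hours against the amplitude of the 24-h cosine on log2(CPM + 1) for 50 genes, NRF on the left and DRF on the right, coloured by class, with filled points for genes called rhythmic. In NRF the called beta subunits lie between ZT7.53 and ZT9.45, apart from the ATPase Psmc6 at ZT17.8, and in DRF no point is filled.

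The rhythmic genes of the cap peaked later in NRF and with smaller swings. Psmc6, an ATPase, had 81.9, 81.9, 77.3 and 83.5 CPM at ZT20 and 74.7, 69.4, 68.4 and 70.9 CPM at ZT8, the reverse of the order in the beta subunits (fitted peak at ZT17.8, BH-adjusted p = 0.00179). The 2 groups, its highest and lowest in NRF, did not overlap, which the choice of these groups favours. The Psmc6 call was lost in 7 of 17 alternatives. Among them were the limma cosine test and the runs without replicate 2 or 4 and without ZT4, ZT8 or ZT20. Psmc3, an ATPase that contacts ubiquitin chains, peaked at ZT14.7 (amplitude 0.075, BH-adjusted p = 0.000447). Psmd2, a large scaffold of the cap like Psmd1, peaked at ZT11.7 (0.066, BH-adjusted p = 0.000441), and the ubiquitin receptor Psmd4 at ZT10.4 (0.072, BH-adjusted p = 0.000919). The Psmd4 call was lost in 5 of 17 alternatives, among them those without replicate 3 (0.244) and with library trends removed. The calls of Psmd2 and Psmc3 were lost in 3 of 17 each, without replicate 3 (0.0626) and without replicate 2 (0.0841) among them. Psmd11, a scaffold subunit of the lid, peaked at ZT14.7 (0.055, BH-adjusted p = 0.00512), a call lost in 9 of 17 alternatives. The alpha subunit Psma7 peaked at ZT8.34 with an amplitude of 0.127, near the beta subunits.

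**Figure D4:**
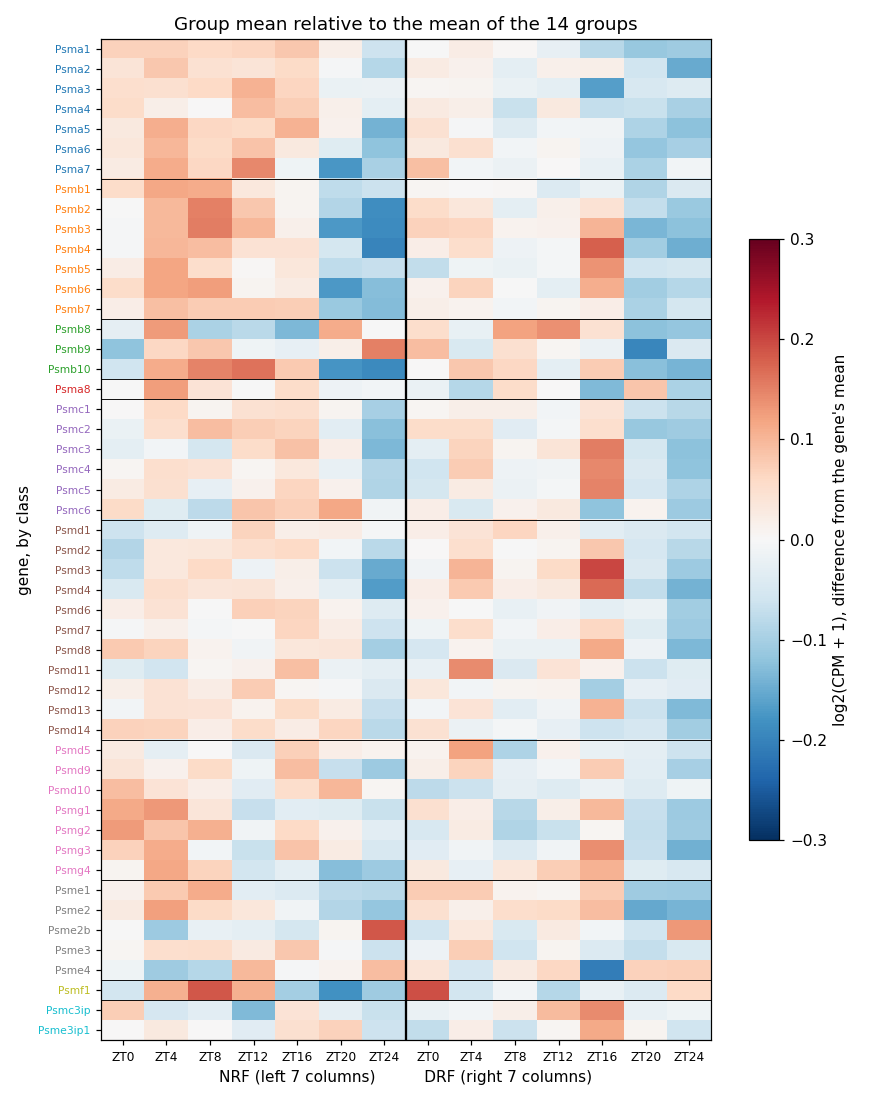
Group means on the log2(CPM + 1) scale as a difference from each gene's mean over the 14 groups, for 50 genes ordered by class, with NRF in the left 7 columns and DRF in the right 7. The beta subunits and Psmb10 are high at ZT4 and ZT8 and low at ZT20 and ZT24 in NRF, and the DRF column of ZT16 stands out in both directions.

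The rhythm itself differed between regimens in 2 of 50 genes, Psmf1 and Psmd1, against 10.9% of all genes. The 5 constitutive beta subunits called in NRF and not in DRF are therefore not shown to differ in rhythm: the BH-adjusted p was 0.0844 for Psmb2, 0.208 for Psmb3, 0.513 for Psmb4, 0.297 for Psmb6 and 0.289 for Psmb7. It was 0.210 for Psmb10, and among genes not called in NRF 0.386 for Psmb1, 0.179 for Psmb5, 0.101 for Psmb8 and 0.922 for Psmb9. After removal of library trends 6 of 50 genes passed, while the share of all genes rose to 17.4%. The 6 were Psmf1 (2.33e-06), Psmb2 (0.00597), Psmc3 (0.00951), Psmb10 (0.0239), Psma7 (0.0273) and Psmb8 (0.0441). Psmd1 had 203, 200, 197 and 213 CPM at ZT0 and 206, 221, 234 and 227 CPM at ZT12 in NRF. In DRF it had 216, 208, 214 and 222 CPM at ZT0 and 210, 228, 210 and 208 CPM at ZT12. The groups overlapped at both times between regimens. The fitted peaks lay at ZT14.4 in NRF and ZT7.21 in DRF with amplitudes of 0.045 and 0.055 (BH-adjusted p = 0.0382), and the call was lost in 13 of 19 alternatives, among them each left-out replicate number and the fit without the 2 DRF libraries of ZT16.

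In mean level over the 7 times, 0 of 50 genes were higher in DRF (5.55% of all genes) and 5 were lower (4.87% of all genes, and 10.4% in either direction): Psmg2, Psma1, Psma3, Psmd10 and Psma4. Psmg2, a chaperone of the alpha ring, had means of 11.8 CPM in DRF and 12.7 CPM in NRF (log2 difference -0.10 ± 0.02, BH-adjusted p = 0.00567). Psma1 had 65.9 and 70.0 CPM (-0.09 ± 0.02, 0.0152) and Psma3 87.7 and 93.0 CPM (-0.09 ± 0.03, 0.0258). Psmd10, a chaperone of the ATPase ring also known as gankyrin, had 15.7 and 16.6 CPM (-0.08 ± 0.02, 0.0259), and Psma4 had 68.3 and 71.5 CPM (-0.06 ± 0.02, 0.0274). The reductions were thus all under 10% and fell on 3 of 7 alpha subunits and 2 of 7 chaperones. The median log2 difference was -0.064 for the alpha ring, -0.019 for the beta ring and -0.020 for the 50 genes, against -0.002 for all genes. Estimates were below 0 in 38 of 50 genes (51.8% of all genes). After removal of each library's trends with length, GC content and level, 0 of the 50 genes were called, against 8.46% of all genes. The median of the 50 genes turned to 0.005 and the estimate of Psmd10 to 0.006. Only 1 gene was called without replicate 1, 3 or 4, where 2.39% to 5.47% of all genes were called. In mean level all 3 blood markers were higher in DRF (sums of 825 to 8213 TPM against 707 to 1898 in NRF), the oligodendrocyte markers Mog and Cnp were lower, and of 8 neuronal markers 2 were lower (Snap25 and Stmn2) and 1 higher (Rbfox3) (3137 to 3908 against 3350 to 4013 TPM). Of the other lists, the astrocyte marker Aqp4, the microglial marker P2ry12 and the endothelial marker Ly6c1 were lower in DRF, and 0 of 6, 0 of 6 and 0 of 5 markers were higher. The part of these cells in the result was not tested.

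At single times few genes were called. At ZT0 1 of 50 was higher in DRF (Psmf1, against 2.33% of all genes) and 0 were lower (2.09%, and 4.42% in either direction). At ZT4 1 was higher (2.78%) and 0 were lower (1.13%, and 3.92% in either direction): Psmd11 had 92.1, 91.0, 89.9 and 90.4 CPM in DRF and 80.2, 80.3, 76.2 and 79.1 CPM in NRF. All DRF mice were above all NRF mice (log2 difference 0.20 ± 0.04, BH-adjusted p = 0.00221), and the call was lost without replicate 3 (0.0558). At ZT4 all 3 blood markers were higher in DRF as well, with sums of 1721 to 8213 TPM against 813 to 1078 TPM, and their part in the result was not tested. At ZT12 1 gene was lower (Psmf1, against 0.523%) and 0 higher (0.961%, and 1.48% in either direction). At ZT8 limma called 0 higher (0.0493%) and 0 lower (0.117%, and 0.166% in either direction). There, 6 of 50 had an unadjusted p under 0.05, against 13.3% of all genes. The smallest were those of Psmf1 (-0.19 ± 0.05, BH-adjusted p = 0.0990), Psmb2 (-0.18 ± 0.06, 0.157) and Psmg2 (-0.20 ± 0.06, 0.182). At ZT20 limma called 0 higher (0.542%) and 0 lower (0.597%, and 1.14% in either direction). There, 4 of 50 had an unadjusted p under 0.05, against 13.6% of all genes. The smallest were those of Psmf1 (0.14 ± 0.05, BH-adjusted p = 0.176), Psmd13 (-0.09 ± 0.04, 0.301) and Psmd10 (-0.14 ± 0.06, 0.315). At ZT24 limma called 0 higher (0.179%) and 0 lower (0.105%, and 0.283% in either direction). There, 1 of 50 had an unadjusted p under 0.05, against 8.11% of all genes. This was Psmf1 (0.17 ± 0.05, BH-adjusted p = 0.193), followed by Psmd13 (-0.06 ± 0.04, 0.730) and Psmd5 (-0.07 ± 0.05, 0.735).

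At ZT16 2 genes were higher in DRF (6.58% of all genes) and 4 lower (13.4%, and 20% in either direction), and without the 2 DRF libraries that stood apart the count was 0, with 0.203% of all genes called. Psmd4 had 102, 108, 129 and 131 CPM in DRF replicates 1 to 4 and 107, 108, 105 and 102 CPM in NRF (0.15 ± 0.05, BH-adjusted p = 0.0211). Psma3 had 89.6, 93.0, 78.0 and 61.0 CPM in DRF and 91.2, 102, 90.1 and 94.7 CPM in NRF (-0.25 ± 0.07, BH-adjusted p = 0.00974). In both genes replicates 1 and 2 of DRF lay within or near the NRF values and replicates 3 and 4 away from them. The GC content of the transcript was 54.4% for Psmd4 and 56.5% for Psmd3, which was also higher, and 42.5% for Psma3 and 41.7% for Psme4, which was also lower. Psma4 (46.3%) and Psme3 (48.6%), an activator subunit, were the other genes lower at ZT16 (BH-adjusted p = 0.0396 and 0.0351). Psme3 was the only one whose groups did not overlap, with 141, 128, 136 and 140 CPM in DRF and 155, 145, 150 and 143 CPM in NRF.

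The family was lowest at ZT24 in both regimens. Its summed level was 4847, 5103, 5108 and 5141 TPM in the DRF mice at ZT24 and 5320, 5321, 5322 and 5369 TPM at ZT0. In NRF it was 5037, 5059, 5065 and 5132 TPM at ZT24 and 5186, 5212, 5326 and 5478 TPM at ZT0. The sums at ZT20, 4966 to 5282 TPM in DRF and 5077 to 5306 TPM in NRF, overlapped those at ZT24 in both regimens. The mice at ZT24 were below all mice at ZT0 in both regimens, although both samplings fall at lights on. This comparison was chosen after the data were seen. The median log2 difference of ZT24 from ZT0 over the 50 genes was -0.099 in DRF and -0.105 in NRF, against -0.005 over all genes in both, and estimates were below 0 in 44 and 43 of 50 genes (51.8% and 51.7% of all genes). Of the classes, the constitutive beta subunits had the lowest median in NRF, -0.186, and they had -0.100 in DRF. Single genes seldom passed: 1 of 50 was lower in NRF (0.776% of all genes) and 0 higher (1.29%, and 2.07% in either direction). This was Psmd8, a lid subunit, with 94.3, 95.5, 92.3 and 93.7 CPM at ZT0 and 85.3, 82.5, 81.5 and 81.9 CPM at ZT24. All its ZT24 mice were below its ZT0 mice (-0.18 ± 0.04, BH-adjusted p = 0.0263). The call was lost without any one replicate number (0.0844 to 0.159), after removal of library trends (0.0511) and on the deposited scale (0.0803). In DRF limma called 0 lower (0.203%) and 0 higher (0.265%, and 0.468% in either direction). Here 21 of 50 had an unadjusted p under 0.05, against 14.9% of all genes. The smallest were those of Psma2 (-0.18 ± 0.05, BH-adjusted p = 0.0854), Psmd4 (-0.16 ± 0.05, 0.0929) and Psmc2 (-0.16 ± 0.05, 0.125). Without the 2 DRF libraries of ZT16, 7 genes were called in NRF and 2 in DRF. The shares of all genes called rose as well, to 6.84% in NRF and 1.05% in DRF. After removal of library trends the medians were -0.040 in NRF and -0.071 in DRF. The day and order of sampling and dissection were not analysed here and cannot be told apart from the time point.

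**Figure D5:**
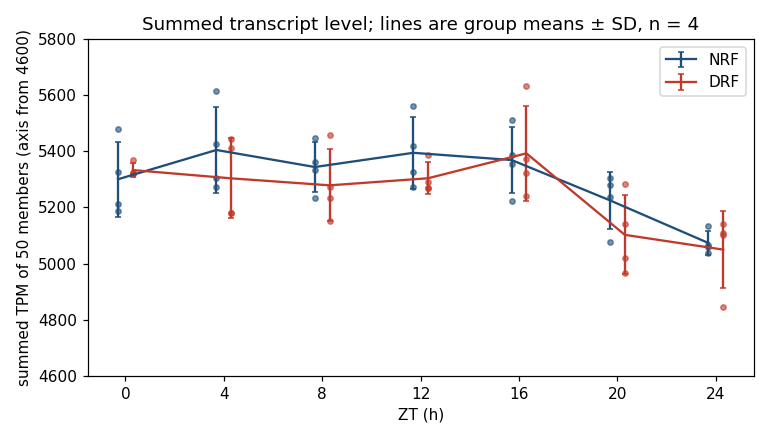
Summed TPM of the 50 genes in each mouse against ZT in hours, NRF in blue and DRF in red, with group means ± SD (4 mice) and an axis that does not start at 0. The lowest group means are those of ZT24, 5050 TPM in DRF and 5073 TPM in NRF.

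Genes around the proteasome were counted in the same fits. Of 8 partners outside the symbol rule that passed the filter, 3 were rhythmic in NRF (27.8% of all genes) and 0 in DRF: the ubiquitin receptor Adrm1 peaked at ZT8.94 (BH-adjusted p = 0.00192), the scaffold Ecpas at ZT19.7 (0.00107) and Akirin2, which guides proteasomes into the nucleus, at ZT18.0 (0.00138). Akirin2 was also lower in DRF in mean level (-0.09 ± 0.03, BH-adjusted p = 0.0364). In the list on Nfe2l1 and its activation, 4 of 8 genes were rhythmic in NRF: Nfe2l2 (BH-adjusted p = 7.41e-06), Mafg (2.67e-05), Sel1l (6.62e-05) and Ngly1 (0.00736), with peaks between ZT16.4 and ZT20.3. Nfe2l1 itself ranged from 238 to 324 TPM and was not called in NRF (BH-adjusted p = 0.0921) or in DRF (1). In DRF 1 of the 8 was rhythmic, the Maf partner Mafk (BH-adjusted p = 0.00841), and Ddi2, the protease that activates Nfe2l1, was higher in DRF in mean level (0.18 ± 0.05, BH-adjusted p = 0.00941). Of the genes of ubiquitin supply and shuttling, the shuttle Ubqln1 was rhythmic in NRF with a peak at ZT19.1 (BH-adjusted p = 7.67e-05), and 0 of 11 were rhythmic in DRF.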

How the data were processed

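RNA was measured by poly(A)-selected sequencing in 56 mice. Per the study's methods the authors filtered reads, aligned them with HISAT2 and Bowtie2 to GRCm38.p6 and estimated counts with RSEM, followed by TMM scaling. Tools are as listed in the submitters' processing notes, without versions. The deposited values, named TPM by the authors, behaved as a score: log2(CPM + 1) divided by gene length and rescaled per sample to sums of 999333 to 999720. CPM and reads were recovered from the deposited table by finding the length that gave whole reads (within 0.02) in at least 51 of 56 samples; 46 of the 50 genes resolved to whole reads and 4 to hundredths of a read, and 47 lengths equalled the GENCODE union of exons. Rhythms were tested on the deposited values over 16245 genes (numpy 2.4.6), other contrasts with limma 3.58.1 (R 4.3.3, mean-variance trend) on log2(CPM + 1) over 16238 genes, all BH-adjusted. Fold changes on this scale understate those of low genes. Symbols were matched by gene ID; 108 IDs had none. Scripts were tested on simulated data. Given with values were the cutting and immunoproteasome subunits, Psmf1, the highest and lowest genes and, per comparison, up to 12 genes past the threshold or the 3 of smallest p. Members and lists were chosen with earlier results of these data known. No same-group libraries agreed within counting noise. Replicate numbers are from the labels and are taken as separate mice; same-numbered DRF and NRF libraries correlated at -0.531 to 0.249 in their deviations, so they were not treated as pairs. Alternatives covered the rhythm method, scale, pseudocount, filter, normalization, trend, block, left-out replicates and times; removal of library trends and of 2 libraries, and the contrast of ZT24 with ZT0, were chosen after the data were seen. Results for some genes of the comparison lists are not reported here.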

Additional observations from a re-analysis of the deposited data

Results flagged for a closer look

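Psmf1 (BH-adjusted p = 6.63e-06) and Psmd1 (BH-adjusted p = 0.0382) stood out because the limma test of the difference between the DRF and NRF rhythms passed the threshold. In addition, 126 groups of 4 mice were examined for a mouse far from the others (Dixon's test), and 8 had one; chance gives about 1 in 20. The summed level of the 50 genes was 5369 TPM in DRF ZT0 replicate 4 against 5320 to 5322 TPM in the others, and 4847 TPM in DRF ZT24 replicate 4 against 5103 to 5141 TPM. Psmb7 had 102 CPM in DRF ZT0 replicate 4 against 97.9 to 98.5 CPM. Psmb8 had 2.12 CPM in DRF ZT24 replicate 1 against 1.44 to 1.53 CPM. Psmb10 had 21.4 CPM in DRF ZT8 replicate 1 against 18.8 to 18.9 CPM. Psmf1 had 43.8 CPM in DRF ZT4 replicate 2 against 39.2 to 39.7 CPM, and 49.4 CPM in NRF ZT12 replicate 2 against 43.9 to 44.7 CPM. Psmd1 had 228 CPM in DRF ZT12 replicate 2 against 208 to 210 CPM. The causes were not tested.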

How the results depend on the processing

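Shares of all genes called under the same setting are given in parentheses. Lomb-Scargle alone called 0 genes rhythmic in NRF, and 9 were called without ZT24 (18.4%), against 15 (27.8%). In DRF 2 were called without ZT4 (2.11%) and 1 without the 2 DRF ZT16 libraries (0.714%), against 0 (0.813%). A rhythm difference was called in 6 genes after removal of library trends (17.4%), against 2 (10.9%). It was called in 1 with quantile normalization, without the 2 DRF ZT16 libraries, and without ZT0, ZT4, ZT16 or ZT20 (5.79% to 12.8%). A mean level difference was called in 0 genes after removal of library trends (8.46%) and in 2 without ZT20 (7.13%), against 5 (10.4%). Removal of library trends gave 4 calls at ZT0 (9.35%), 2 at ZT4 (4.96%), 1 at ZT8 (0.339%) and 2 at ZT16 (11.3%). It gave 2 for ZT24 against ZT0 in DRF (1.95%). Leaving out the 2 DRF ZT16 libraries gave 2 at ZT0 (7.20%), 3 at ZT4 (6.45%), 1 at ZT8 (0.770%) and 0 at ZT16 (0.203%). For ZT24 against ZT0 it gave 2 in DRF (1.05%) and 7 in NRF (6.84%). The scale log2(deposited value + 1) gave 2 at ZT4 (4.83%), 3 at ZT16 (17.5%) and 0 for ZT24 against ZT0 in NRF (2.44%). Quantile normalization gave 0 at ZT12 (1.44%). The replicate block gave 2 at ZT4 and 0 at ZT12 and moved no other count of calls by over 1.5 times; the numbers are not known to pair the mice, and 6 of 28 same-numbered pairs correlated over 0.1. Leaving out a replicate number gave 6 to 12 rhythmic genes in NRF and 0 to 0 in DRF, 1 to 2 rhythm differences, 1 to 7 level differences, 0 to 1 calls at ZT0 and at ZT4, 0 to 0 at ZT12, 0 to 10 at ZT16, and 0 to 0 for ZT24 against ZT0 in NRF. Estimates turned sign for Psmd10 in mean level (0.006) and Psme4 at ZT16 (0.042) after removal of library trends, and for Psmd4 at ZT16 (-0.004) without the 2 libraries. The causes were not tested. The depth limits Psma8, Psme2b and Psmb9, with medians of 6, 7.6 and 21.5 reads per library.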
